A study of Mus musculus with 44 samples.

Results

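The heat shock chaperone genes described here are 10 of the 35249 genes in the count table: Hspa1a, Hspa1b, Hsph1, Dnajb1, Hsp90aa1, Hspa8, Hspb1, Hspd1, Hspe1 and Hsf1. They were taken from a list of gene names, matched to the Ensembl identifiers of the table, and all 10 were present and all 10 passed the filter on low counts. The list was chosen by name with results of these data in view, and the measured values that bore on it were those of Hspa1a and Hspa1b. They were low in the Ripk3KO libraries on the choline-deficient high-fat diet, so that group is set against wild type on the same diet without a test.

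RNA was sequenced from whole mouse liver in 44 libraries that form 9 groups. The 3 genotypes were wild type (WT), Ripk3KO and MlklKO, and each was fed a control diet or 1 of 2 diets lacking choline, low in fat (CD-LFD) or high in fat (CD-HFD). Feeding began at 2 months of age and lasted 6 months. In the order control, CD-LFD and CD-HFD there were 6, 6 and 6 WT libraries, 6, 3 and 4 Ripk3KO libraries and 6, 4 and 3 MlklKO libraries. The WT groups carry no engineered allele in the labels, and the knockout groups carry only the named one. The labels give neither how the knockouts were made nor the strain, and they do not say that each library is a separate animal, so the p-values measure the spread between these libraries. In necroptosis, a form of cell death, the kinase RIPK3 activates MLKL, which then breaks membranes.

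Heat shock proteins are chaperones that bind unfolded or newly made proteins, keep them from aggregating and help them fold. When unfolded proteins accumulate, the transcription factor HSF1 is released from chaperones, forms a trimer and binds heat shock elements, which are inverted repeats of the letters GAA, in the promoters of chaperone genes. The inducible members of the family are low in unstressed cells and rise fast with heat, toxins or handling, whereas Hspa8 and Hsp90 proteins are abundant in all cells, the liver included.

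The promoter stretches below show which members hold such repeats and how alike the Hspa1a and Hspa1b genes are. They are from RefSeq on GRCm38.p6, printed 5′ to 3′ on the strand of the gene, with matches in capitals. The submitters' processing notes name GRCm39, so the positions belong to the reference only. The motifs were searched on both strands: a pair of inverted units, GAANNTTC or TTCNNGAA, and a longer run in which GAANNTTC is followed by NN and a further GAA, so that every match to it also holds a pair.
Hspa1a, chr17:34972157-34972336, minus strand: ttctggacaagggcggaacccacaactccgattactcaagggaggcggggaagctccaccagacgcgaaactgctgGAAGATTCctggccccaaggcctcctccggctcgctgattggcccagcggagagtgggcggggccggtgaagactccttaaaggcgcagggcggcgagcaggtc
Hspa1b, chr17:34959239-34959418, minus strand: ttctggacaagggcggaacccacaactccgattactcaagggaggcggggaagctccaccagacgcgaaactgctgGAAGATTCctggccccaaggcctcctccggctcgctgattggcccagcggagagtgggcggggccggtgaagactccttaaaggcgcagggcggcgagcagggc
Hspb1, chr5:135887759-135887918, plus strand: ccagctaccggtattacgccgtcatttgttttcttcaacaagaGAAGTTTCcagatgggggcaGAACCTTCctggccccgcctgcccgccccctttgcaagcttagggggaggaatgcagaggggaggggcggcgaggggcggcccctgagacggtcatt
Hspd1 and Hspe1, which share a promoter, chr1:55088053-55088082, read on the Hspe1 strand: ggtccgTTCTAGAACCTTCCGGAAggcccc
Hsph1 upstream of its start, chr5:149636351-149636380, minus strand: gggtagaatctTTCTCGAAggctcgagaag
Hsph1 just after its start, chr5:149636279-149636308, minus strand: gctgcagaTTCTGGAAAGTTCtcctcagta

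The Hspa1a and Hspa1b stretches, each 180 bases long and ending at the base before the start site, were identical at 179 of 180 bases, and the coding sequences were 99.4% identical. The longest run the 2 transcripts share without a mismatch was 638 bases, so short reads from much of either gene cannot be assigned to 1 of them, and how the authors' counting treated such reads changes both counts. The summed count of the pair does not depend on how reads are split between them, and is given where it alters a result. Promoter windows of 250 bases before and 50 after a start site were in the reference table for 7 of the members. They have 10 windows, since some have more than 1 start, and 7 of the 10 windows held the pair of inverted units, against 15.1% of 32851 windows in the table; these 7 belong to 6 members, all but Dnajb1. The longer run was in 4 of the 10 windows, those of Hsph1, Hspd1 and Hspe1, against 0.603% of all windows. The windows are not separate cases, because Hspa1a and Hspa1b are near copies, Hspd1 and Hspe1 share the same stretch and the Hsph1 windows overlap. These are letter matches, not measured binding.

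Library totals ranged from 2476268 to 12471844 counts in 43 libraries and reached 88204703 in WT CD-LFD replicate 3. Levels below are counts scaled by the TMM library size (CPM), with mean ± SD over the libraries of a group where a mean is given. Ripk3 was at 0 to 1.01 CPM of the library total in the 13 Ripk3KO libraries, highest in control replicate 5 (9 counts). WT libraries were at 0.439 to 5.94, and those on the control diet at 0.439 to 4.78, median 1.08. Ripk3KO control replicate 5 lay within that control range, so it is described as the library labelled Ripk3KO. Mlkl was at 1.24 to 2.61 CPM in MlklKO control libraries against 2.02 to 5.50 in WT control, and MlklKO CD-HFD replicate 1 had 14.4 CPM against 3.55 and 6.02 in the other 2 of its group and 17.2 to 22.6 in WT CD-HFD, so this library is described as the library labelled MlklKO. Hepatocyte markers (Alb, Apoa1, Ttr, Cps1, Serpina1c and Hnf4a) were detected in every group, and their summed CPM on control and CD-HFD was 85618 to 150971 and 52575 to 87923 in WT, 99456 to 143491 and 58277 to 83707 in Ripk3KO, and 97011 to 111846 and 63046 to 85626 in MlklKO. Summed macrophage, stellate cell and cholangiocyte markers were higher in every CD-HFD library than in every control library of the same genotype, and none of those markers was at 0 throughout. The part of this shift in the results below was not tested, and in whole tissue fewer cells of a type and less RNA per cell cannot be told apart. The log2 ratio of the clock genes Arntl and Dbp ran from -8.01 to 2.73 and was divided into 2 sets, called clock phases here, between -3.71 and -2.68, where the gap was 1.03. This was the widest gap with at least 5 libraries on each side, but the step between the 2 highest libraries (1.46 and 2.73) was wider, so the sets are not clear clusters. The ratio was high in 4 of 6 WT control, 6 of 6 WT CD-LFD and 1 of 6 WT CD-HFD libraries and low in all 26 knockout libraries.

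On the control diet in WT the members spanned a wide range of levels per kilobase of exon. Hspa8, the constitutive cytosolic HSP70, was highest at 294 ± 68.6 CPM per kilobase (n = 6). Hspd1, the mitochondrial chaperonin HSP60, followed at 162 ± 67.5, and Hspe1, its HSP10 partner, and Hsp90aa1, the inducible cytosolic HSP90, stood next at 109 ± 43.8 and 107 ± 55.3. The ranges of these last 3 overlapped, and that of Hspd1 reached that of Hspa8. Hspb1, the small heat shock protein HSP25, had 40.0 ± 15.9. Hspa1b, Hsph1 (the nucleotide exchange factor HSP110) and Dnajb1 (an HSP40 co-chaperone that hands clients to HSP70) had 16.5 ± 6.39, 15.7 ± 6.73 and 13.3 ± 3.82, within each other's spread. Hsf1 had 3.82 ± 1.63 and Hspa1a, the other inducible HSP70 gene, 0.961 ± 0.598. The length used was that of all exons, though reads matching both Hspa1a and Hspa1b may not have been counted or may have been split. The places of these 2 genes in the order are therefore uncertain. Hspa1a rested on few reads, 4 to 21 counts in the 6 WT control libraries and a median of 20 over all 44, so its values carry the largest counting error of the set.

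**Figure D1:**
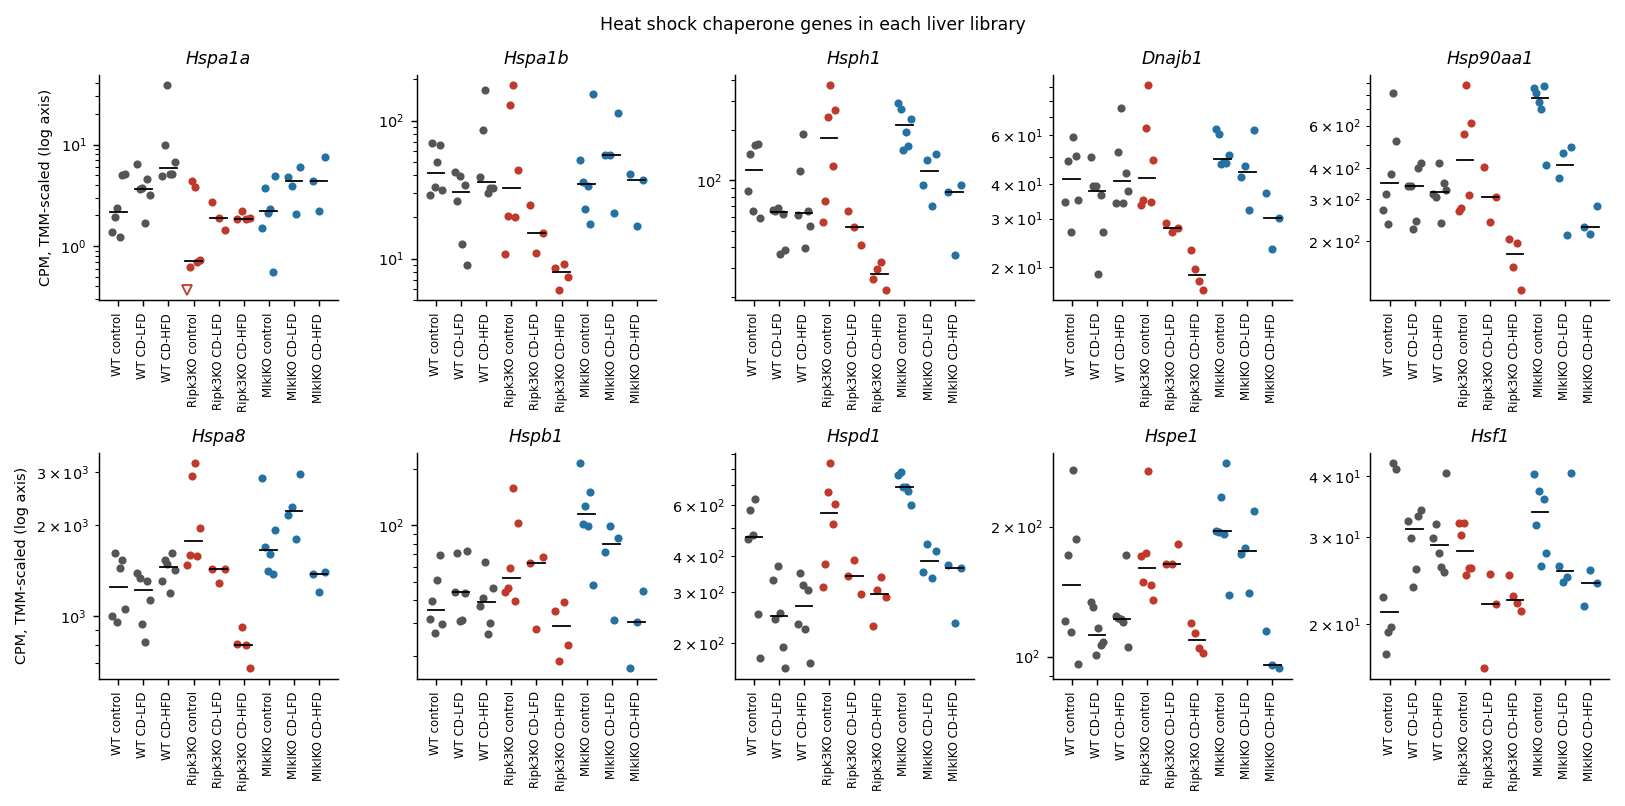
Level of each of the 10 genes in every library, in CPM on a log axis, by genotype and diet; each point is a library, the horizontal line the group median, and the open triangle a library listed at 0 (Hspa1a, Ripk3KO control). The 4 Ripk3KO CD-HFD libraries lie close together and below all 6 Ripk3KO control libraries for 8 of the 10 genes.

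The first comparison asked how the choline-deficient high-fat diet changed the genes in each genotype. In Ripk3KO liver 7 of the 8 genes other than Hspa1a and Hspa1b fell on CD-HFD against the control diet and none rose, led by Hsph1 at 6.89-fold. Hspa1b, whose values bore on the choice of genes, is described without a test there and was 8.81-fold lower. In MlklKO liver 6 fell, led by Hspb1 at 4.01-fold. In WT liver Hspd1 fell and Hspa1a rose. Within the low clock phase, which left 2 WT control and 5 WT CD-HFD libraries, 5 members were called in WT, with 6752 of all genes called in that fit against 7082 over all libraries: Hspd1, Hsph1 and Hspe1 lower (log2 -1.19, -1.16 and -0.73) and Hspa1a and Hsf1 higher (1.99 and 0.78). Of all genes tested, 46.3% were called in Ripk3KO (24.6% higher, 21.7% lower), 45.2% in MlklKO (24.9% higher, 20.3% lower) and 47.7% in WT (23.5% higher, 24.1% lower), so a call in either direction was common in each genotype. The median log2 change of the members was -1.39 in Ripk3KO, -0.92 in MlklKO and 0.07 in WT, beside all-gene medians of -0.05, -0.04 and -0.07. The 4 Ripk3KO CD-HFD libraries were already known to be low when the genes were listed, so the Ripk3KO calls describe those libraries and are not independent support. For Hspa1a and Hspa1b no p is given there. The rise of Hspa1a in WT is likewise a description, since WT CD-HFD was the group set against those libraries.

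Hspa1b encodes the inducible HSP70. In Ripk3KO control liver it ranged from 10.9 to 181 CPM with a median of 32.3, and on CD-HFD it was 8.49, 5.92, 9.09 and 7.42. Every CD-HFD library lay below every control library, and the control libraries themselves differed more than 10-fold, with replicates 3 and 4 highest. The log2 change was -3.14 ± 0.69 (SE), and -2.55 without control replicate 4. In MlklKO it ranged from 17.9 to 155 CPM on control, median 34.9, and was 41.3, 17.1 and 37.1 on CD-HFD, with overlapping groups and a log2 change of -0.73 ± 0.67 (edgeR adjusted p = 0.389). In WT it ranged from 28.7 to 68.4 CPM on control, median 41.6, and from 29.6 to 166 on CD-HFD, median 35.9. The WT groups overlapped, and only replicates 2 and 3 on CD-HFD were above the control range.

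Hspa1a, its near copy, was at 1.23 to 5.13 CPM in WT control, median 2.17, and at 4.88 to 38.8 on CD-HFD, median 5.93. The ranges overlapped at their edges, and 38.8 was a single library, replicate 3, with the next at 9.86. In the test it rose 4.35-fold (log2 2.12 ± 0.54, edgeR adjusted p = 0.00111), and 1.23 on the log2 scale (adjusted p = 0.031) without that library. WT CD-HFD was the other group of the comparison that bore on the choice of genes. These p-values are therefore a description and not independent support. Replicate 3 was also the only WT CD-HFD library with a high ratio of Arntl to Dbp. The summed count of Hspa1a and Hspa1b gave a log2 change of 0.64 in WT (adjusted p = 0.332), so the call ended when the pair was counted together. In Ripk3KO, Hspa1a ranged from 0 to 4.4 CPM on control, median 0.71, and was 1.83, 2.19, 1.84 and 1.88 on CD-HFD (log2 change 0.12). In MlklKO it ranged from 0.552 to 4.92 on control and was 4.35, 2.22 and 7.60 on CD-HFD (log2 change 0.91, adjusted p = 0.239). Both pairs of groups overlapped.

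Hsph1 resets HSP70 by exchanging its nucleotide. It ranged from 56.0 to 374 CPM in Ripk3KO control, median 181, and was 25.5, 29.4, 32.4 and 22.0 on CD-HFD. No CD-HFD library reached the lowest control library, and the log2 change was -2.79 ± 0.44 (edgeR adjusted p = 1.61e-06). In MlklKO it ranged from 152 to 292 on control, median 214, and was 84.8, 35.8 and 93.8 on CD-HFD, again without overlap (log2 change -1.601 ± 0.46, adjusted p = 0.00421). In WT it ranged from 59.9 to 166 on control, median 115, and from 39.5 to 189 on CD-HFD, median 63.7. The WT groups overlapped (log2 change -0.38 ± 0.35, adjusted p = 0.385).

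Dnajb1 was at 33.6 to 91.5 CPM in Ripk3KO control, median 42.0, and at 23.1, 19.7, 17.9 and 16.6 on CD-HFD. The groups did not overlap, and the log2 change was -1.41 ± 0.27 (edgeR adjusted p = 3.08e-05). In MlklKO it was 47.2 to 63.3 on control, median 49.5, and 37.1, 23.2 and 30.3 on CD-HFD, also without overlap (log2 change -0.81, adjusted p = 0.0193, and 0.0859 without MlklKO CD-HFD replicate 2). WT libraries overlapped, at 26.9 to 59.3 on control and 34.1 to 75.7 on CD-HFD. Hspa8, the abundant constitutive HSP70, was at 1478 to 3214 CPM in Ripk3KO control, median 1775, and at 804, 917, 799 and 669.7 on CD-HFD. All 4 were below the control range, with a log2 change of -1.41 ± 0.22 (edgeR adjusted p = 1.18e-06). In MlklKO it was 1382 to 2878 on control and 1379.7, 1201 and 1396 on CD-HFD, which overlapped at the lowest control library (log2 change -0.46, adjusted p = 0.108). WT was at 953 to 1613 on control and 1192 to 1612 on CD-HFD.

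Hsp90aa1 folds kinases and receptors. It was at 268 to 885 CPM in Ripk3KO control, median 433, and at 205, 157, 197 and 126 on CD-HFD, and at 412 to 872 in MlklKO control, median 783, and at 229, 214 and 281 on CD-HFD. Neither pair overlapped, and the log2 changes were -1.50 ± 0.31 (edgeR adjusted p = 0.000122) and -1.61 ± 0.35 (adjusted p = 0.000236). WT libraries were at 236 to 815 on control and 239 to 420.3 on CD-HFD, one within the range of the other. Hspb1, which holds unfolded proteins without using ATP, was at 39.4 to 158 CPM in Ripk3KO control, median 52.6, and at 35.0, 18.9, 38.9 and 22.9 on CD-HFD (log2 change -1.38 ± 0.39, adjusted p = 0.00399). In MlklKO it was at 48.3 to 215 on control, median 114, and at 17.2, 30.5 and 44.5 on CD-HFD (log2 change -2.002 ± 0.45, adjusted p = 0.000371). Both knockouts showed no overlap between the diets, whereas WT libraries overlapped at 26.6 to 69.4 and 26.2 to 63.8, with medians of 35.5 and 39.0.

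Hspd1 and Hspe1 form the chaperonin of the mitochondrial matrix and are transcribed from a shared promoter. Hspd1 ranged from 178 to 629 CPM in WT control, median 466, and from 171 to 349 on CD-HFD, median 269, with overlap, and its log2 change was -0.68 ± 0.23 (edgeR adjusted p = 0.0136). Without WT control replicate 4 its adjusted p was 0.0574. In Ripk3KO it went from 313 to 835 on control to 229, 305, 337 and 288 on CD-HFD, where only replicate 3 reached the control range (log2 change -0.93 ± 0.27, adjusted p = 0.00379), and in MlklKO from 597 to 779 to 372, 235 and 364, without overlap (log2 change -1.11 ± 0.30, adjusted p = 0.00211). Hspe1 was at 135 to 269.9 CPM in Ripk3KO control and at 119.5, 114, 105 and 102 on CD-HFD, and at 139 to 281 in MlklKO control and at 114, 95.8 and 94.0 on CD-HFD. Both were without overlap, with log2 changes of -0.66 ± 0.21 (adjusted p = 0.00757) and -1.02 ± 0.23 (adjusted p = 0.000367). In WT it was at 96.3 to 271 and 105 to 172, within the spread of the control libraries.

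Hsf1, the transcription factor of the response, did not pass the test in any genotype. It was at 25.2 to 32.1 CPM in Ripk3KO control and at 25.1, 22.8, 22.0 and 21.2 on CD-HFD, which lay just below the control range (log2 change -0.33, edgeR adjusted p = 0.168). In MlklKO it was at 26.3 to 40.3 on control and at 21.8, 25.7 and 24.3 on CD-HFD (log2 change -0.47, adjusted p = 0.0719). WT libraries were at 17.3 to 42.4 and 25.5 to 40.5. The transcript level of this factor does not report its activity, which is set by trimer formation and phosphorylation.

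**Figure D2:**
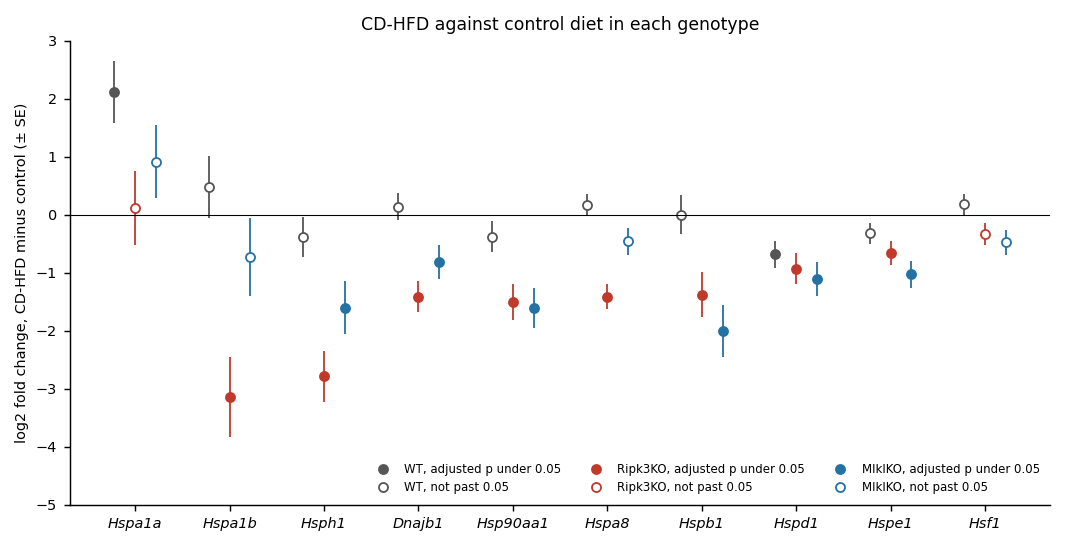
Log2 change (CD-HFD minus control) of each gene in each genotype, with bars of 1 SE from the edgeR fit; filled points have an adjusted p under 0.05. Points of Ripk3KO and MlklKO lie below 0 for 9 and 9 of the 10 genes, and the filled WT points are Hspa1a above 0 and Hspd1 below it. The filled points of Hspa1b in Ripk3KO and of Hspa1a in WT are descriptions only, since values of both genes in these CD-HFD groups bore on the choice of genes.

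The non-overlap of libraries, which for Ripk3KO uses the same libraries known to be low when the genes were listed, was as follows. In Ripk3KO 8 members, Hspa1b among them, had every CD-HFD library below every control library, where 15.9% of all genes did. In MlklKO 7 did, where 17.2% of all genes did, and in WT none did, where 6.63% of all genes did. In MlklKO 6 members were called also without the library labelled MlklKO CD-HFD replicate 1, whose Mlkl level was high. Scaling by library size alone, in place of TMM, moved the all-gene median change on CD-HFD from -0.07, -0.05 and -0.04 to 0.43, 0.49 and 0.49 in WT, Ripk3KO and MlklKO. With that scaling 4 members other than Hspa1b still fell in Ripk3KO (Dnajb1, Hsp90aa1, Hspa8 and Hsph1) and 3 in MlklKO (Hsp90aa1, Hspb1 and Hsph1). The calls for Hspd1 and Hspe1 in both knockouts, Hspb1 in Ripk3KO and Dnajb1 in MlklKO were lost with it. In WT it ended the call for Hspd1 and gave 4 members called higher, Hspa1a, Hspa8, Dnajb1 and Hsf1. It also turned the split of all calls from 3657 higher of 6884 to 6870 of 7607 in Ripk3KO. In MlklKO the split went from 3699 of 6718 to 6364 of 7091, and in WT from 3496 of 7082 to 6813 of 7833. Scaling by RLE size factors gave all-gene medians of 0.002, 0.036 and 0.033 in WT, Ripk3KO and MlklKO. It kept the knockout calls on members that library size scaling ended.

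On the choline-deficient low-fat diet 4 members were called against control in Ripk3KO, 2 in MlklKO and 2 in WT. In Ripk3KO 4 of 10 fell against control (24.1% of all genes called, 14% higher and 10.1% lower): Hspa1b by 2.01, Hsph1 by 1.83, Dnajb1 by 0.88 and Hspa8 by 0.62 on the log2 scale, with edgeR adjusted p of 0.0393, 0.00394, 0.0233 and 0.0489. The 3 CD-LFD libraries were at 24.6, 11.0 and 15.3 CPM for Hspa1b and at 65.2, 52.7 and 41.2 for Hsph1, both overlapping the lower control libraries. For Dnajb1, at 29.0, 26.8 and 27.8, and Hspa8, at 1432, 1282 and 1432, all 3 lay below the control range. Leaving out 1 library at a time gave 1 to 5 calls: that for Hsph1 held throughout, and those for the other 3 were each lost in 4 to 6 of the 9 fits. Without Ripk3KO control replicate 4 the log2 change of Hspa1b was -1.43. With library size scaling 1 member was called in Ripk3KO, Hsph1, and 3910 of 4423 calls among all genes were higher, against 2075 of 3576 with TMM.

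In MlklKO 2 members fell on CD-LFD (37.9% of all genes called, 19.7% higher and 18.3% lower), Hsp90aa1 by 0.94 (edgeR adjusted p = 0.0142, and 0.0726 without MlklKO CD-LFD replicate 3) and Hspd1 by 0.86 on the log2 scale (adjusted p = 0.01). Hspd1 was at 351, 439, 334 and 416 CPM, all below the control range of 597 to 779, while Hsp90aa1, at 366, 463, 214 and 489, overlapped it. In WT 2 fell (27.7% of all genes called, 13.7% higher and 14% lower), Hsph1 by 1.01 (adjusted p = 0.03) and Hspd1 by 0.72 (adjusted p = 0.0169). WT CD-LFD libraries were at 36.4 to 68.2 CPM for Hsph1 and 164 to 369 for Hspd1, and both ranges overlapped control. Neither WT call held in every fit that left out 1 library. All 6 WT CD-LFD libraries had the high ratio of Arntl to Dbp, and with that clock phase as a covariate 1 member was called. With library size scaling no member was called in WT, and 4142 of 4879 calls among all genes were higher, against 2040 of 4117 with TMM. In MlklKO the same 2 members were called with that scaling, and 3733 of 5646 calls among all genes were higher, against 2925 of 5638. That scaling moved the all-gene median change on CD-LFD from -0.03, 0.01 and 0.06 to 0.27, 0.32 and 0.20 in WT, Ripk3KO and MlklKO.

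Between the choline-deficient diets, Hspa8 was lower on high fat than on low fat in both knockouts, where the Ripk3KO CD-HFD libraries are again those known to be low when the genes were listed. In Ripk3KO the log2 difference was -0.79 ± 0.25 (edgeR adjusted p = 0.0334), with 8.83% of all genes called (5.75% higher, 3.08% lower), and 6 members (Hspe1, Hsph1, Dnajb1, Hspa8, Hsp90aa1 and Hspa1b) had all 4 CD-HFD libraries below all 3 CD-LFD libraries, where 15.2% of all genes did. The call for Hspa8 held in 1 of the 7 fits that left out a library. In MlklKO Hspa8, Hspb1 and Hspe1 were lower by 0.80, 1.22 and 0.81 on the log2 scale (adjusted p = 0.0174, 0.0484 and 0.0131), with 23.7% of all genes called (14.6% higher, 9.14% lower). These calls held in 5, 2 and 5 of the 7 fits that left out a library. Library size scaling ended all 3 of them and that for Hspa8 in Ripk3KO, and with it 1360 of 1531 calls among all genes were higher in Ripk3KO, against 854 of 1312 with TMM, and 4776 of 5163 in MlklKO, against 2164 of 3523. MlklKO CD-LFD libraries were at 2157, 2302, 1801 and 2966 CPM for Hspa8, all above the 3 CD-HFD libraries given earlier. In WT Hspa1a was higher on CD-HFD by 1.59 ± 0.48 (adjusted p = 0.0132), with 21.1% of all genes called (13.7% higher, 7.4% lower). Its CD-LFD libraries were at 1.67 to 6.42 CPM, and leaving out WT CD-HFD replicate 3 gave 0.70 (adjusted p = 0.282). With Hspa1a and Hspa1b summed the call was lost (edgeR adjusted p = 0.0825). WT CD-HFD was a group of the comparison that bore on the choice of genes. The Hspa1a result is therefore a description and not independent support. When scaled by library size 3 members were called higher in WT, and 3058 of 3558 calls among all genes were higher, against 2040 of 3140.

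The next comparison asked whether the knockouts differed from WT before any choline-deficient diet. In MlklKO control liver 5 of the 10 genes were higher than in WT control and none was lower, where 27.1% of all genes were called (13% higher, 14.1% lower). Hspb1 was 3.04-fold higher (log2 1.604 ± 0.35, edgeR adjusted p = 0.00065), at 48.3 to 215 CPM against 26.6 to 69.4, and only MlklKO replicate 6 lay within the WT range. Hsph1, Hsp90aa1, Hspd1 and Hspa8 were higher by 0.93, 0.80, 0.71 and 0.52 on the log2 scale (adjusted p = 0.0449, 0.0223, 0.0197 and 0.0333), and for each of them the 2 groups overlapped. The median of the members was 0.44 beside -0.06 for all genes. With library size scaling 2 members were called, and 1618 of 4069 calls among all genes were higher, against 1932 of 4029 with TMM. The count was also 2 with only the compared groups in the fit or with clock phase as a covariate. The 6 MlklKO control libraries all had a low ratio of Arntl to Dbp, while 4 of the 6 WT control libraries had a high one. Against the 2 WT control libraries with a low ratio, the members called were Hsp90aa1 (1.11 higher) and Hsf1 (0.87 higher). There Hspb1 was higher by 1.48 (adjusted p = 0.0582), close to its value over all libraries. Over all libraries, leaving out 1 library at a time gave 2 to 6 calls: Hspb1 was called in all 12 such fits, Hsp90aa1 and Hspd1 in 10, Hspa8 in 8 and Hsph1 in 5.

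In Ripk3KO control liver 1 member, Hspa8, was higher than in WT control (log2 0.75 ± 0.19, edgeR adjusted p = 0.0141), where 4.47% of all genes were called (2.25% higher, 2.23% lower). Among all genes, 229 of 951 calls were higher with library size scaling, against 334 of 665 with TMM. Ripk3KO control libraries were at 1478 to 3214 CPM and WT at 953 to 1613, so the groups overlapped slightly. Without Ripk3KO control replicate 4, which was the highest library of its group in 8 of the 10 genes, the adjusted p was 0.0695, and against the 2 WT control libraries with the low clock ratio it was 0.417 (log2 0.48). The call was also lost without Ripk3KO control replicate 3. The other 9 members did not pass the test. Hsph1, at 56.0 to 374 CPM, and Hspb1, at 39.4 to 158, had log2 differences of 0.73 and 0.88 from WT (adjusted p = 0.236 and 0.134).

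On CD-LFD, Hspa8 was 2.001-fold higher in MlklKO than in WT (log2 1.001 ± 0.21, edgeR adjusted p = 0.00309), where 2.56% of all genes were called (1.64% higher, 0.929% lower). With library size scaling the log2 difference was 0.75, and 148 of 873 calls among all genes were higher, against 243 of 381 with TMM. The 4 MlklKO libraries were at 1801 to 2966 CPM and the 6 WT libraries at 817 to 1386, without overlap. With the clock phase as a covariate the difference was 0.77 (adjusted p = 0.719), and all WT CD-LFD libraries had the high ratio. Hspe1 and Hsph1 also had every MlklKO library above every WT library, where 3.88% of all genes did, but did not pass the test. Between Ripk3KO and WT on CD-LFD edgeR called no member (1.1% of all genes called, 0.794% higher and 0.31% lower), with 2 at an unadjusted p under 0.05, and DESeq2 called 0. Among all genes, 69 of 143 calls there were higher with library size scaling, against 118 of 164.

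On CD-HFD the Ripk3KO libraries were low against WT for most of the set. This is the pattern known when the genes were chosen, and it is given as a description. The log2 differences from WT CD-HFD were -3.05 for Hspa1b, -2.59 for Hspa1a, -1.67 for Hsph1, -1.27 for Dnajb1, -0.92 for Hsp90aa1, -0.84 for Hspa8, -0.50 for Hspb1, -0.41 for Hsf1, -0.22 for Hspe1 and 0.12 for Hspd1. For 7 members (Hspa1a, Hspa1b, Hsph1, Dnajb1, Hsp90aa1, Hspa8 and Hsf1) all 4 Ripk3KO libraries lay below all 6 WT libraries, which 2.4% of all genes did, and 0.377% of all genes were called (0.209% higher, 0.168% lower), with 31 of 56 calls higher against 22 of 64 with library size scaling. Between MlklKO and WT on CD-HFD edgeR called no member and 0% of all genes, with 2 members at an unadjusted p under 0.05, and DESeq2 called 0. The MlklKO CD-HFD libraries overlapped WT CD-HFD for every member.

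The design also allows the change on CD-HFD to be set between genotypes, a difference of differences. The interactions of the 2 knockouts share the WT libraries. For MlklKO, Hspb1 was the 1 member called: its log2 change on CD-HFD in MlklKO differed from that in WT by -2.003 (SE 0.56, edgeR adjusted p = 0.0318), where 4.12% of all genes were called (1.58% higher, 2.54% lower). As the values above show, Hspb1 on CD-HFD was at 17.2 to 44.5 CPM in MlklKO and 26.2 to 63.8 in WT, and the groups differed mainly on the control diet, at 48.3 to 215 and 26.6 to 69.4. The call was lost, with adjusted p of 0.0522 to 0.0983, without any 1 of 6 libraries, which were MlklKO CD-HFD replicates 1 and 2, MlklKO control replicates 1 and 5, WT CD-HFD replicate 3 and WT control replicate 3. Within the low clock phase the difference for Hspb1 was -1.75 (adjusted p = 0.121), and the member called was Hsf1 (-1.28, adjusted p = 0.0099). At an unadjusted p under 0.05 there were 7 members. For Ripk3KO, which holds the comparison that led to the choice of genes, the differences were -3.62 for Hspa1b, -2.40 for Hsph1, -2.003 for Hspa1a, -1.59 for Hspa8, -1.55 for Dnajb1, -1.38 for Hspb1, -1.12 for Hsp90aa1, -0.51 for Hsf1, -0.34 for Hspe1 and -0.25 for Hspd1, without a test, and 0.478% of all genes were called (0.135% higher, 0.343% lower). On CD-LFD edgeR called no member in the interaction with either knockout (called among all genes: 0.0269% for Ripk3KO, 0.00673% higher and 0.0202% lower, and 8.45% for MlklKO, 4.37% higher and 4.08% lower), with 1 and 1 at an unadjusted p under 0.05, and DESeq2 called 0 and 0. In the MlklKO interaction on CD-LFD 387 of 1495 calls were higher with library size scaling, against 649 of 1256.

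Genes of the same pathways outside the set were followed in lists, whose counts stand beside the share of all genes called on CD-HFD against control: 21.7% lower and 24.6% higher in Ripk3KO, 20.3% and 24.9% in MlklKO, and 24.1% and 23.5% in WT. Among 20 tested cytosolic stress genes linked to HSF1, 13 fell and 3 rose on CD-HFD in Ripk3KO, 10 fell and 2 rose in MlklKO, and 5 fell and 4 rose in WT, with median log2 changes of -0.79, -0.55 and -0.27. The WT counts were near the share of all genes, and 3 fell in WT without WT control replicate 5. Bag3, a co-chaperone that couples HSP70 to autophagy and a standard HSF1 target, was at 30.1 to 158 CPM in Ripk3KO control and 24.5, 23.0, 30.1 and 26.1 on CD-HFD, and fell by 1.70 on the log2 scale (edgeR adjusted p = 2.45e-05). Dnaja1, an HSP40, was at 222 to 782 CPM in Ripk3KO control and at 120.0, 145, 147 and 137 on CD-HFD, and fell by 1.75 there and by 1.59 in MlklKO. Serpinh1, a collagen chaperone, rose by 2.75, 1.75 and 1.74 and Cryab, a small heat shock protein, by 2.61, 1.57 and 2.48 in WT, Ripk3KO and MlklKO. Summed stellate cell markers went from 75.8 to 147 CPM on control to 327 to 813 on CD-HFD in WT, from 51.3 to 91.9 to 438 to 547 in Ripk3KO and from 60.3 to 122 to 558 to 870 in MlklKO, and their part in these 2 rises was not tested. With library size scaling the HSF1-linked counts became 7 lower and 5 higher in Ripk3KO and 4 lower and 6 higher in MlklKO.

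All 12 tested chaperones of the endoplasmic reticulum (ER) fell on CD-HFD in Ripk3KO and 11 fell in MlklKO, whereas 3 fell in WT and none rose, with medians of -1.46, -1.42 and -0.28. Hspa5, the ER HSP70, was at 908 to 4848 CPM in Ripk3KO control and 641, 476, 611 and 486 on CD-HFD, and at 2416 to 4312 in MlklKO control and 1046, 643 and 1059.9 on CD-HFD, without overlap in either. It fell by 1.89 and 1.81, and its WT libraries overlapped at 431 to 1398 and 527 to 1243. Creld2 and Hyou1, both induced by ER stress, fell by 2.89 and 2.47 in Ripk3KO and by 2.64 and 2.14 in MlklKO. On the control diet 11 of the 12 were higher in MlklKO than in WT (median 1.26; Hspa5 by 1.64), beside 13% of all genes, and 5 were against WT libraries of the low clock ratio. In Ripk3KO 7 were higher, beside 2.25% of all genes. This count for Ripk3KO was not refitted without single libraries or against WT libraries of the low clock ratio. Leaving out 1 library at a time gave 11 to 12 falls in Ripk3KO, 10 to 11 in MlklKO and 1 to 5 in WT (5 without WT control replicate 6, and 1 without WT CD-HFD replicate 4, 5 or 6 or WT control replicate 2 or 4), and with library size scaling 10 and 9 fell in Ripk3KO and MlklKO.

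Of the 8 genes of the cytosolic chaperonin TRiC, which folds actin and tubulin, 7 fell in each knockout and 4 in WT on CD-HFD, by less than 1 on the log2 scale (Cct3 by 0.94 in MlklKO), and with library size scaling 0 and 1 fell in Ripk3KO and MlklKO. Of 20 co-chaperones of HSP70 and HSP90, 10 fell in each knockout and 8 in WT and none rose, with Dnaja4 at -1.63, -2.09 and -1.17 in Ripk3KO, MlklKO and WT, and with library size scaling 2 and 1 fell and 4 and 4 rose in the knockouts. Leaving out 1 library at a time gave 10 to 12, 7 to 11 and 5 to 11 co-chaperones lower in Ripk3KO, MlklKO and WT (5 without WT CD-HFD replicate 4 or WT control replicate 4), beside 21.7%, 20.3% and 24.1% of all genes. Among 10 mitochondrial chaperones and proteases 3, 4 and 4 fell in Ripk3KO, MlklKO and WT, and 1 rose in each, Hscb, a co-chaperone of iron-sulfur cluster assembly, by 2.23, 1.98 and 0.98, and with library size scaling 0, 0 and 2 fell and 3, 4 and 4 rose. At 3 to 4 of 10 the falls were not far from the share of all genes, and without MlklKO CD-HFD replicate 4 they were 2 in MlklKO. Small heat shock proteins other than Hspb1 divided. Of 5 tested, Hspb2, Hspb7 and Cryab rose in all 3 genotypes, by 5.86, 3.04 and 2.61 in WT. Hspb2 and Hspb7 had a mean log2 CPM of -1.12 and -0.65 over the 44 libraries, so their changes rested on few reads. Hspb6 fell in all 3 genotypes, by 1.34 in WT. Hspb8, the fifth, fell by 1.39 in Ripk3KO and 1.49 in MlklKO and had a log2 change of -0.36 in WT (adjusted p = 0.129); without WT control replicate 6 the falls in WT were 2. Of the 4 tested heat shock factors and regulators, Hsf2 and Hsbp1l1 fell in WT (by 0.70 and 3.29) and in Ripk3KO (by 0.63 and 1.66), and none passed the test in MlklKO; with library size scaling 1 rose in Ripk3KO and 2 in MlklKO. The 2 falls in Ripk3KO became 1 without CD-HFD replicate 1, 3 or 5 or control replicate 1. In MlklKO 1 gene fell without control replicate 1 or 4. Hsbp1l1 had a mean log2 CPM of 0.11 over the 44 libraries, so its changes rested on few reads. Of 2 cold-inducible RNA-binding genes, Cirbp rose by 0.92 in Ripk3KO and 0.93 in MlklKO (a call lost without MlklKO CD-HFD replicate 2), and Rbm3 by 0.60 in WT. Of 11 tested immediate early genes, which rise with handling and injury, 6 rose and 1 fell in Ripk3KO, 5 rose and 1 fell in MlklKO, and 8 rose and 2 fell in WT, beside 24.6%, 24.9% and 23.5% of all genes called higher. Without MlklKO CD-HFD replicate 2 the rises in MlklKO were 3, and without WT control replicate 1, 2 or 4 those in WT were 5. The single fall was lost without any 1 of 5 libraries in Ripk3KO and 6 in MlklKO, and the 2 in WT became 1 without any 1 of 6. Atf3 rose by 3.58, 4.18 and 3.45.

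**Figure D3:**
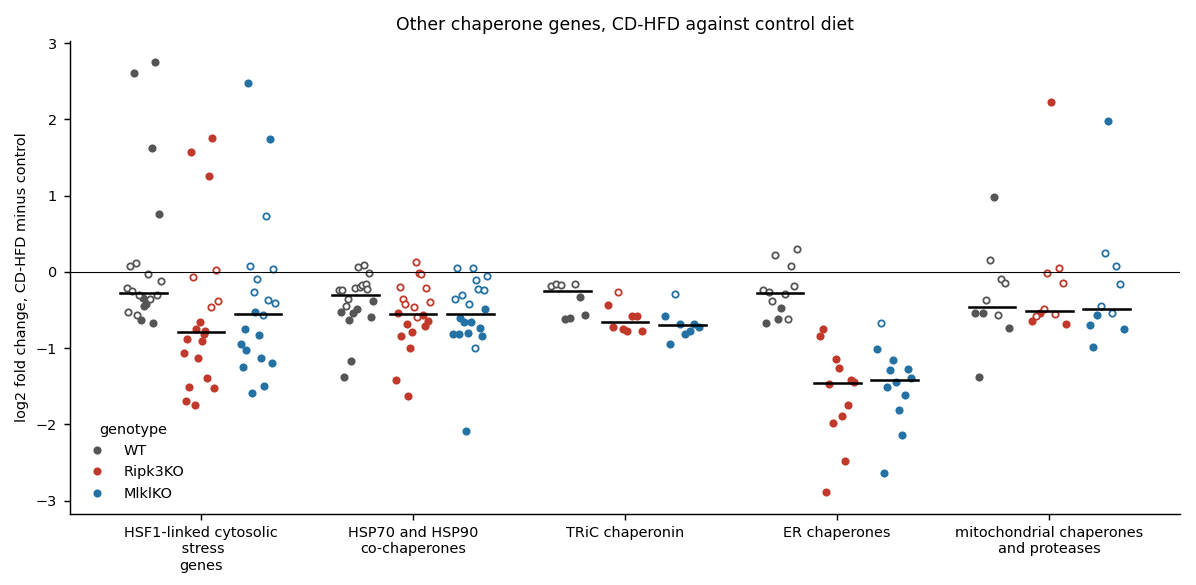
Log2 change (CD-HFD minus control) of each tested gene of 5 chaperone lists in each genotype, with filled points at an adjusted p under 0.05 and a bar at the list median. ER chaperones lie below 0 in Ripk3KO and MlklKO with medians of -1.46 and -1.42, against -0.28 in WT.

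Within groups, libraries that were high for 1 inducible chaperone tended to be high for others. Over the 44 libraries, the deviation of the summed Hspa1a and Hspa1b level from its group mean (log2 CPM) correlated with that of Hsph1 at Pearson's r = 0.838 (Spearman's rho 0.841), of Dnajb1 at 0.809 (0.852) and of Hspa8 at 0.727 (0.769). For Hspd1 it was 0.480, for Hsp90aa1 0.440, for Hspb1 0.328, for Hspe1 0.168 and for Hsf1 -0.0681. Without Ripk3KO control replicates 4 and 1, which lay farthest from the median, the values were 0.787, 0.766 and 0.659 for Hsph1, Dnajb1 and Hspa8 and 0.291 for Hsp90aa1. The points share their libraries and scaling, and no p is given. Ripk3KO control replicate 4 was the highest of its group in 8 members and replicate 1 the lowest in 7, and MlklKO CD-LFD replicate 4 the highest in 8 and replicate 3 the lowest in 9.

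Among 11774 genes ranked by the same measure, the 8 most like the Hspa1a and Hspa1b pair outside the set were Bag3 (r = 0.847), P4ha1 (0.838), Sel1l (0.737), Hspa4l (0.735), Fkbp4 (0.713), Ccdc117 (0.705), Fndc3a (0.698) and Cflar (0.691). Bag3, Hspa4l (an HSP110 relative) and Fkbp4 (an HSP90 co-chaperone) were also in the HSF1-linked list. P4ha1 is a subunit of collagen prolyl hydroxylase and Sel1l a part of the ER degradation machinery. Of the 2 cold-inducible RNA-binding genes, Cirbp had r = -0.553 (-0.415 without the same 2 libraries) and Rbm3 0.0874. Without the MlklKO libraries 4 of these 8 were again among the 8 highest.

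**Figure D4:**
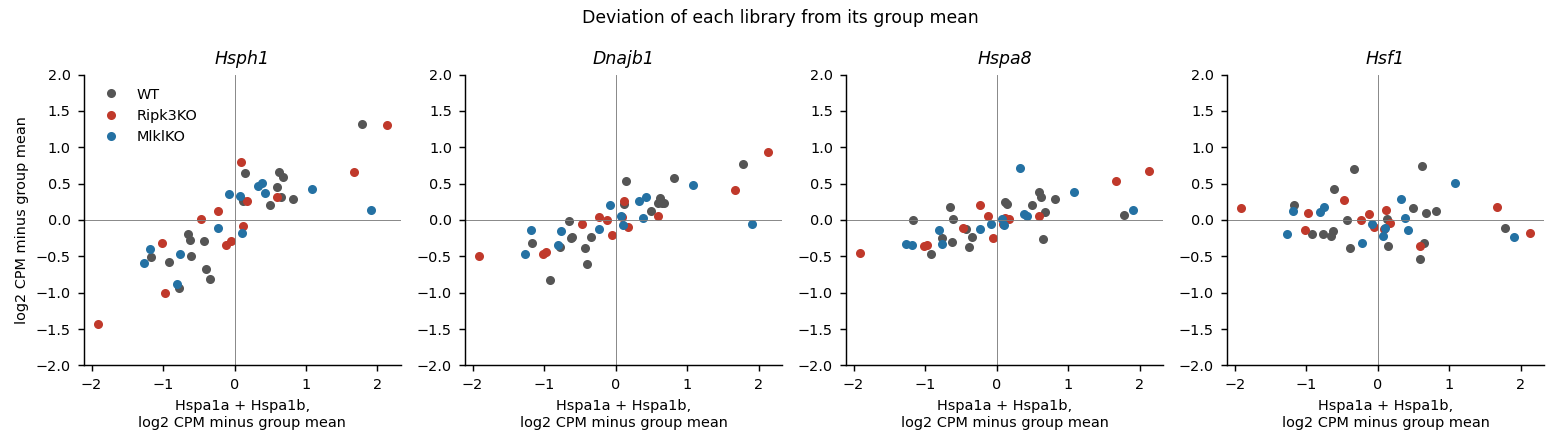
Deviation of each of the 44 libraries from its group mean (log2 CPM) for the summed Hspa1a and Hspa1b level (horizontal axis) against Hsph1, Dnajb1, Hspa8 and Hsf1 (vertical axes). Points rise together for Hsph1 (r = 0.838), Dnajb1 (r = 0.809) and Hspa8 (r = 0.727) and show no slope for Hsf1 (r = -0.0681).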

How the data were processed

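The authors deposited whole-number read counts, not normalised, for 35249 Ensembl genes in 44 libraries. Per the submitters' processing notes, FastQC, STAR, HTSeq, edgeR and limma were used with GRCm39 (mm39); their versions and settings are not given in the sources used here. Per the labels' protocols, total RNA was column-purified and the kit keeps strand. Symbols were matched to 34373 genes.

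Counts were filtered with filterByExpr (minimum count 10), which kept 14862 genes with 99.8% of counts, and scaled by TMM. The edgeR (4.0.16, R 4.3.3) quasi-likelihood F test was fitted over all 44 libraries with 1 mean per group for 19 contrasts, 2 of them used only for the share of all genes called. P-values were adjusted by Benjamini-Hochberg over the 14862 genes with a threshold of 0.05. The SE is the log2 change over the square root of F. The script was tested on simulated data. Alternatives were DESeq2 (1.42.0), scaling by RLE size factors or by library size, no filter, only the compared groups, and the replicate number as a block. Further ones were leaving out each library, dropping WT control replicates 5 and 6, and summing Hspa1a and Hspa1b. Clock phase (a high or low ratio of Arntl to Dbp) was used as a covariate or 1 phase alone was fitted.

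The named genes are all 10 members in every comparison, up to 3 called genes with the largest change from each list, and the 8 genes most like the Hspa1a and Hspa1b pair among those with a mean log2 CPM of at least 1. Hspa5, Dnaja1, Bag3, Cryab, Hspb6, Hsf2 and others that fall outside this rule in 1 genotype were named after their values were seen. The members and lists were chosen with earlier results of these data known. Libraries of 1 group did not repeat each other (chi-square over its degrees of freedom was 6.59 to 96.7 in 93 pairs). Reads carry no molecular identifiers, so counting error is the least error a value has.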

Additional observations from a re-analysis of the deposited data

Results flagged for a closer look

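In 8 of the 70 combinations of gene and group with 4 to 10 libraries, 1 library was flagged as far from its group. The rule flags about 1 in 20 for separate, normally distributed values. CPM need not be so distributed and the genes share libraries, so 8 of 70 is not read as an excess. Hspa1a was at 38.8 CPM in WT CD-HFD replicate 3, with the next library at 9.86. It was also flagged at 2.19 in Ripk3KO CD-HFD replicate 2, with the next at 1.88. That value rested on 20 counts, against 11, 21 and 22 in the others, so its gap is within counting error. Hspa1b was at 155 CPM in MlklKO control replicate 6, with the next at 51.5, and Hsp90aa1 was lowest in the same library at 412, with the next at 701. Hspa8 was at 2878 CPM in MlklKO control replicate 1, with the next at 1934. Hspe1 was at 172 CPM in WT CD-HFD replicate 5, with the next at 124, and at 269.9 in Ripk3KO control replicate 4, with the next at 173. Hsf1 was at 40.5 CPM in MlklKO CD-LFD replicate 4, with the next at 26.3.

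The change of Hspb1 on CD-HFD differed between MlklKO and WT by -2.003 on the log2 scale in the edgeR interaction test (adjusted p = 0.0318), a call that was lost without any 1 of 6 libraries and within 1 clock phase, as given above.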

How the results depend on the processing

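Of the 37 calls on members, 18 held in all fits that left out 1 library, 11 in all other alternatives and 10 in all of both. Of 133 results without a call 29 gained one somewhere. The 37 include the call on Hspa1b in Ripk3KO CD-HFD and those on Hspa1a in WT CD-HFD, which are descriptions only. Of 87 named results on list genes 46 kept their call throughout, and of 36 list counts 25 moved by over 1.5 times at least once. Direction turned for 4 results: Hsp90b1 in WT on CD-HFD (0.031, library size scaling), Hspa1a in Ripk3KO when summed with the more abundant Hspa1b (-2.85 on CD-HFD and -1.89 on CD-LFD, by construction), and the untested Hspe1 interaction of Ripk3KO and CD-HFD (0.079 within 1 clock phase). The cause of the other changes was not tested.

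Member calls became, with library size scaling, 4, 0 and 3 in WT (CD-HFD against control, CD-LFD against control, CD-HFD against CD-LFD), 5, 1 and 0 in Ripk3KO, 3 and 0 in MlklKO (CD-HFD against control and against CD-LFD), and 2 for MlklKO against WT control. With only the compared groups in the fit they became 1 and 1 in WT (CD-HFD and CD-LFD against control), 1 and 6 in Ripk3KO (CD-LFD against control, CD-HFD against CD-LFD), 5 for MlklKO CD-HFD against CD-LFD, and, against WT, 2 for MlklKO control, 3 for MlklKO CD-LFD and 0 for Ripk3KO control. With clock phase as a covariate they became 1 for WT CD-LFD against control and, against WT, 2 for MlklKO control, 0 for MlklKO CD-LFD and 0 for Ripk3KO control. Within 1 clock phase they became 5 for WT CD-HFD against control, 2 for Ripk3KO CD-HFD against CD-LFD, 2 for MlklKO against WT control and 0 for Ripk3KO against WT control; this fit could not be run with WT CD-LFD, which has 0 libraries in that phase. Without WT control replicates 5 and 6 they became 4 for WT CD-LFD against control, 3 for MlklKO against WT control, and 3 and 1 for the interactions of MlklKO with CD-HFD and CD-LFD. Without a filter Ripk3KO CD-HFD against CD-LFD gave 0. With Hspa1a and Hspa1b summed, WT CD-HFD gave 1 against control and 0 against CD-LFD. Without MlklKO 4 of the 8 most alike genes were shared.

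Leaving out 1 library at a time gave, for CD-HFD against control, 1 to 3 calls in WT, 8 to 8 in Ripk3KO (Hspa1b included) and 5 to 6 in MlklKO; for CD-LFD against control 0 to 3, 1 to 5 and 1 to 3; for CD-HFD against CD-LFD 0 to 1, 0 to 1 and 0 to 3. Against WT it gave 0 to 1 (Ripk3KO) and 2 to 6 (MlklKO) on control, 0 to 0 and 1 to 1 on CD-LFD, and 0 to 0 for MlklKO on CD-HFD. For the interactions it gave 0 to 2 (MlklKO with CD-HFD), 0 to 0 (MlklKO with CD-LFD) and 0 to 0 (Ripk3KO with CD-LFD).

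Replicate numbers do not pair the libraries: deviations of same-numbered libraries correlated at a median of -0.0114 over 146 pairs, 42 of them over 0.1. The replicate block moved 1 count by over 1.5 times, Ripk3KO CD-HFD against CD-LFD, to 2. Depth limits Hspa1a most, with a median of 20 counts over the 44 libraries.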

Other observations

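The share of Hspa1a in the summed Hspa1a and Hspa1b counts, noticed after the values were seen, is given by diet. It was 6.26 ± 4.26% in WT control, 13.9 ± 6.28% on CD-LFD and 14.3 ± 3.37% on CD-HFD (SD, n = 6 each). In Ripk3KO it was 2.21 ± 1.29% (n = 6), 11.1 ± 3.24% (n = 3) and 20.4 ± 4.62% (n = 4), and every library on either choline-deficient diet was above every control library. In MlklKO it was 5.54 ± 2.97% (n = 6), 7.06 ± 1.73% (n = 4) and 12.7 ± 3.88% (n = 3). These shares are a description with no test, since the pattern was noticed in these values and values of the pair bore on the choice of genes. The genes are near copies, so the share also depends on how the authors' counting treated reads that match both, which was not tested.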
